A study of Homo sapiens with 9 samples.

Results

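EGR1, EGR3 and ARC are activity-regulated immediate-early genes, and their transcripts were followed across 3 groups of the HEK293 line, which derives from human embryonic kidney, on 9 single-colour Affymetrix arrays. All probe sets whose platform annotation carries one of the 3 symbols were taken, which gave 3 of 14884 named genes and 4 of the 53617 probe sets: 2 for EGR1 and 1 each for EGR3 and ARC. All 4 lay above the filter on dim probe sets that is described below, as did 33376 probe sets in all. The agonist group was labelled as overexpressing GPR39 and was given 1 uM TC-G-1008, a synthetic agonist of this zinc-sensing G protein-coupled receptor. The GPR39 group was labelled as overexpressing GPR39 and was given 0.03 mg/mL cumate, which induces transgenes placed under a cumate-controlled promoter. The mock group was labelled as naive control cells without cumate. Each group had 3 arrays, numbered as biological replicates, and whether each stands for its own culture is not stated. The p-values therefore cover the spread among these arrays, which may be technical. The labels give no exposure time, do not say whether the agonist arrays also received cumate, and do not describe how the receptor was introduced. No group had cumate or the agonist without the receptor label, so between the GPR39 and mock groups the receptor and cumate cannot be told apart, and between the agonist and GPR39 groups the agonist and a possible lack of cumate cannot be told apart.

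Immediate-early genes are transcribed within a short time after a cell receives a signal and need no new protein for it, because the factors on their promoters are already present and are switched on by kinases. EGR1 and EGR3 encode zinc finger transcription factors that bind GC-rich sites, and the NAB proteins are corepressors that bind EGR proteins and limit their action. ARC encodes a capsid-forming protein derived from a retrotransposon, which in rodent neurons promotes the removal of glutamate receptors from synapses. In mouse neurons Egr3 and Egr1 act on the Arc gene. In many cell types growth factors, calcium and G protein-coupled receptors switch on EGR1 through ERK kinases, serum response factor and CREB.

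Serum response factor binds a CArG box, and CREB binds the cAMP response element (CRE). The 250 bases before the EGR1 start site, at chr5:138465229-138465478 on the plus strand of GRCh38.p14 (RefSeq), are shown because EGR1 carried one of the larger rises and these bases hold sites through which signals are known to reach the gene. EGR3 and ARC had no entry among the promoter sequences used here, so their promoters were not searched. The CArG boxes of EGR1 (CC, then 6 letters each A or T, then GG) are in capitals.
EGR1: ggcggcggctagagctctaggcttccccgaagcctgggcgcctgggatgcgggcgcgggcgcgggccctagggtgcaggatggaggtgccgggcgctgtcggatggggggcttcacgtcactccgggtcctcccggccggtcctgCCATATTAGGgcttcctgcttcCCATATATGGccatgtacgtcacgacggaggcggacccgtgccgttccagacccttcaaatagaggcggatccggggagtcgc
The 2 CArG boxes lay at positions -105 to -96 and -83 to -74, counted from -1 for the base before the start site. A search of both strands for TGACG, the shared part of many CREs, found it on the minus strand at -135 to -131 and at -66 to -62. A match to GCGNGGGCG, a site bound by EGR proteins, lay at -198 to -190, and neither TGACGTCA nor the AP-1 motif TGANTCA was matched. No match overlapped a match of another motif. Among 35116 RefSeq promoters of 300 bases, 454 (1.29%) held a CArG box and 11 (0.0313%) held at least 2. TGACG was held by 24.6% of these promoters and GCGNGGGCG by 9.43%. These matches are a description of the sequence.

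The arrays had medians between 3.13 and 3.22 on the log2 scale and within-group correlations across probe sets from 0.984 to 0.991. Mock replicate 1 correlated slightly more with the GPR39 arrays (mean r = 0.988) than with the other mock arrays (mean r = 0.985), so changes against mock are also given without it where they matter. The GPR39 probe set checks the labels only if it lies in the introduced sequence, which the sources used here do not give. It read 2.58 ± 0.11 in agonist, 2.58 ± 0.04 in GPR39 and 2.47 ± 0.07 in mock arrays (SD, n = 3 each), at or below the 40th percentile of the array in all 9. The label of overexpression therefore had no counterpart in this probe set. Of 15 HEK293 markers, 9 had a named probe set, all above the filter. Their summed signal was 10.3 to 10.7 in agonist, 10.4 to 10.5 in GPR39 and 11.0 to 11.1 in mock arrays on the log2 scale. Most of that sum was IRS4, an insulin receptor substrate gene abundant in HEK293. It averaged 9.69 ± 0.32 in agonist, 9.52 ± 0.03 in GPR39 and 10.54 ± 0.05 in mock arrays (SD, n = 3 each). The other HEK293 markers did not all follow it. In the limma test described below, 1 of the 9 fell and 0 rose between agonist and GPR39 arrays. This was HOXB7, with a change of -0.79 (limma adjusted p = 0.000992). Between GPR39 and mock 1 fell and 0 rose. This was IRS4, with a change of -1.03 (limma adjusted p = 0.0162). Between agonist and mock 3 fell and 1 rose, KRT18 by 0.29 (limma adjusted p = 0.0158). Of 12 neuron markers 5 had a named probe set, and their summed signal was 6.89 to 7.03 in agonist, 6.72 to 6.79 in GPR39 and 6.75 to 6.87 in mock arrays. The neuron marker STMN2 did not pass the filter. Of the 4 tested, 0 passed in limma between agonist and GPR39 or between GPR39 and mock arrays. Between agonist and mock SYN1 rose by 0.77 and MAP2 fell by 0.40 (limma adjusted p = 0.008 and 0.0139). SYP differed there by 0.30 and did not pass, but its other probe set rose by 0.67 (limma adjusted p = 0.0175). Of 7 leukocyte markers 4 were named, and their summed signal was 7.92 to 8.14 in agonist, 7.74 to 7.77 in GPR39 and 6.75 to 7.08 in mock arrays. Most of that sum was CD68, a lysosomal protein gene. It rose by 0.90 between GPR39 and mock and by 1.23 between agonist and mock (limma adjusted p = 0.0124 and 0.0004). CD14, a monocyte receptor gene, averaged 2.85 ± 0.12 in agonist, 2.77 ± 0.05 in GPR39 and 2.76 ± 0.07 in mock arrays (SD, n = 3 each). TYROBP, another of the 4, averaged 3.53 ± 0.14, 3.34 ± 0.37 and 2.85 ± 0.31 in the same order (SD, n = 3 each). It did not pass in any of these comparisons. DCN and LUM, the 2 named of 6 fibroblast markers, were at or below the 40th percentile in all 9 arrays. The neuron and leukocyte sums were higher in the agonist arrays than in the GPR39 arrays, and their part in the results below was not tested. In cultures of many cells, more cells expressing a gene and more RNA per cell cannot be told apart.

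The agonist arrays were first set against the GPR39 arrays, which carry the same receptor label. EGR1, EGR3 and ARC were all higher in the agonist arrays than in the GPR39 arrays, and ARC differed most. A probe set was tested if it lay above the 40th percentile of its array (2.63 to 2.70 on the log2 scale) in at least 3 of the 9 arrays, and it was called at a Benjamini-Hochberg adjusted p under 0.05 in limma over all tested probe sets. All 4 probe sets of the 3 genes rose, where 3.12% of all tested probe sets rose, 5.95% fell and 9.06% changed in either direction. In all 4 every agonist array lay above every GPR39 array, as in 13.5% of all tested probe sets, and the groups failed to overlap in either direction in 29.9%. The median log2 change was 2.28 over the 4 probe sets and 0.01 over all tested.

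ARC, the synaptic capsid-forming protein gene, read 7.68, 7.91 and 7.69 on the log2 scale in the agonist arrays, against 4.89, 4.80 and 4.88 in the GPR39 arrays. The groups were far apart, and no agonist array came near a GPR39 array. The log2 change was 2.91 ± 0.11 (SE; 95% interval 2.66 to 3.15), a 7.49-fold rise (limma adjusted p = 1.06e-05). By size of rise ARC was number 9 of the 33376 probe sets tested.

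EGR1, the zinc finger factor gene, read 10.76, 10.98 and 10.76 on probe set 16989736 in the agonist arrays, against 8.65, 8.81 and 8.47 in the GPR39 arrays. It was well detected in every group. The change was 2.19 ± 0.12 (SE; 95% interval 1.92 to 2.46), which is 4.56-fold (limma adjusted p = 4.68e-05). The second EGR1 probe set, 17000463, read 8.24, 8.35 and 8.22 in the agonist arrays, against 5.92, 5.97 and 5.81 in the GPR39 arrays. Its change was 2.37 ± 0.10 (SE), which is 5.17-fold (limma adjusted p = 1.61e-05). Both probe sets rose by a similar amount, and the 95% interval of the second, 2.14 to 2.60, overlapped that of the first. The sources used here do not state which strand either one reads. EGR1 lies on the plus strand, and of the 14 genes with a known strand nearest to probe set 17000463 by probe set number, 13 lie on the minus strand, against 1 of 14 for probe set 16989736. Whether the second probe set measures the EGR1 transcript or RNA of the opposite strand was not tested.

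EGR3, which encodes an EGR factor needed for muscle spindles in mice, read 5.28, 5.13 and 5.37 in the agonist arrays, against 4.18, 4.17 and 4.18 in the GPR39 arrays. It was the dimmest of the 3 genes and showed the smallest rise. The change was 1.08 ± 0.13 (SE; 95% interval 0.78 to 1.39), which is 2.12-fold (limma adjusted p = 0.00287). With 16 added to the linear signal before the logarithm, the EGR3 change was 0.67 (limma adjusted p = 0.000642). GPR39 replicates 1 and 3 carry exactly the same deposited EGR3 value, 4.18, so the SD of 0.0024 in that group may understate its spread. The fit uses a spread pooled over the 3 groups and moderated over all probe sets. Exact ties are common in this table: between any pair of arrays 3.43% to 5.75% of the tested probe sets were equal, and their source was not tested.

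**Figure D1:**
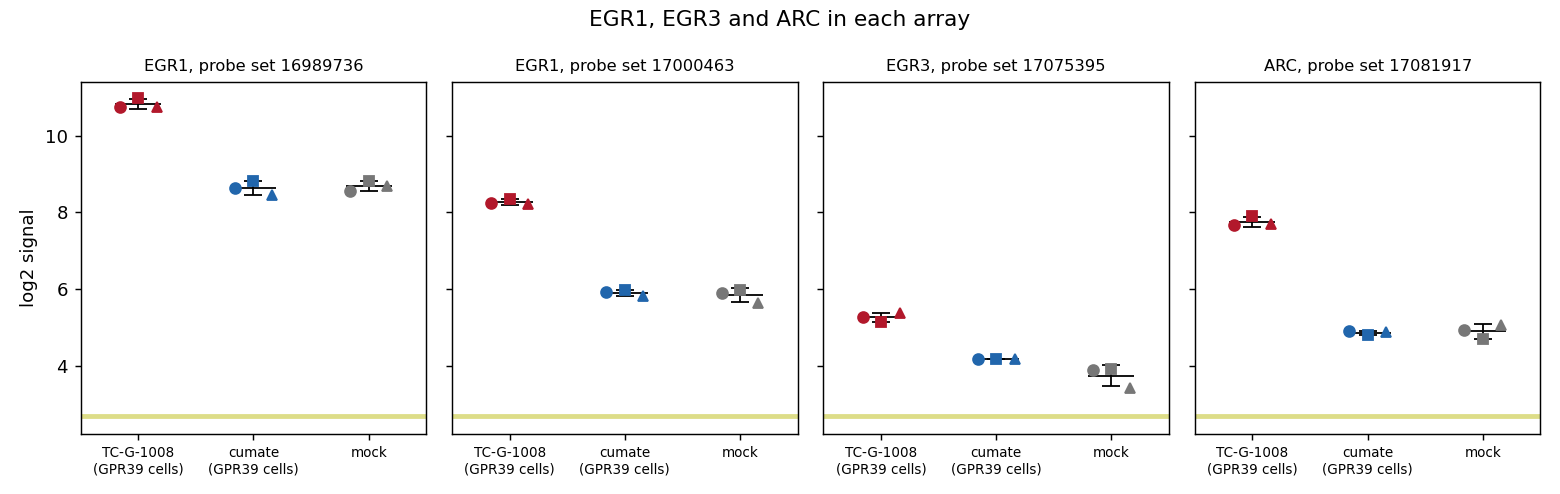
Log2 signal of the 4 probe sets of EGR1, EGR3 and ARC in each of the 9 arrays, from left to right agonist (TC-G-1008), GPR39 (cumate) and mock (circle, square and triangle are replicates 1, 2 and 3; black bars are the mean and SD of 3 arrays). The yellow band is the 40th percentile of the arrays, and all agonist arrays lie above all GPR39 and mock arrays in each panel.

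The GPR39 arrays, with the receptor label and cumate, were then set against mock. None of the 4 probe sets passed the limma test here at an adjusted p under 0.05, where 1.17% of all tested probe sets changed, 0.749% upward and 0.422% downward, and 1 of the 4 (EGR3) had an unadjusted p under 0.05. That background rests on 391 calls, and without mock replicate 1 the number was 1323, with the opposite balance of 416 higher and 907 lower. ARC read 4.89, 4.80 and 4.88 in the GPR39 arrays, against 4.93, 4.69 and 5.05 in mock. The groups overlapped fully, with a log2 difference of -0.04 ± 0.11 (SE; 95% interval -0.29 to 0.21). EGR1 on probe set 16989736 read 8.65, 8.81 and 8.47 in the GPR39 arrays, against 8.55, 8.81 and 8.69 in mock, with a difference of -0.04 ± 0.12 (SE; 95% interval -0.31 to 0.22). Probe set 17000463 read 5.92, 5.97 and 5.81 in the GPR39 arrays, against 5.90, 5.97 and 5.63 in mock, with a difference of 0.07 ± 0.10 (SE; 95% interval -0.16 to 0.30). For ARC and both EGR1 probe sets the intervals leave out a fall of more than 0.31 and a rise of more than 0.30. Leaving out any 1 array, mock replicate 1 included, gave differences of -0.14 to 0.04 for ARC, -0.13 to 0.04 for EGR1 probe set 16989736 and -0.03 to 0.14 for probe set 17000463. GPR39 and mock replicate 2 carry exactly the same value of EGR1 on probe set 16989736.

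EGR3 stood apart in this comparison by its values. It read 4.18, 4.17 and 4.18 in the GPR39 arrays, against 3.88, 3.90 and 3.43 in mock, so every GPR39 array lay above every mock array, as in 11.4% of all tested probe sets, and the groups did not overlap in either direction in 20.7%. The difference of 0.44 ± 0.13 (SE; 95% interval 0.14 to 0.74) had an unadjusted p of 0.00999 and a limma adjusted p of 0.181, and did not pass. Mock replicate 3 was the low array. Without it the difference was 0.28 (limma adjusted p = 0.268), and without mock replicate 1 it was 0.51 (limma adjusted p = 0.109).

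Agonist arrays were also set directly against mock, which shares the agonist arrays with the first comparison and the mock arrays with the second. All 4 probe sets rose, where 6.11% of all tested probe sets rose, 8.94% fell and 15.0% changed in either direction. Every agonist array lay above every mock array in all 4, as in 14.8% of all tested probe sets, and the groups failed to overlap in either direction in 31.0%. ARC read 7.68, 7.91 and 7.69 in agonist arrays, against 4.93, 4.69 and 5.05 in mock, a change of 2.87 ± 0.11 (SE; 7.31-fold, limma adjusted p = 2.70e-06). The EGR1 probe sets 16989736 and 17000463 changed by 2.15 ± 0.12 and 2.44 ± 0.10 (SE). EGR3 read 5.28, 5.13 and 5.37 in agonist arrays, against 3.88, 3.90 and 3.43 in mock, a change of 1.52 ± 0.13 (SE; 2.88-fold, limma adjusted p = 0.000249). With 16 added to the linear signal, the EGR3 change was 0.89 between agonist and mock and 0.21 between GPR39 and mock. For ARC and EGR1 the level was therefore highest in agonist arrays, with GPR39 and mock arrays not separated beyond their spread. For EGR3 the order was agonist, GPR39, mock, and the lower pair was not separated by the test.

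**Figure D2:**
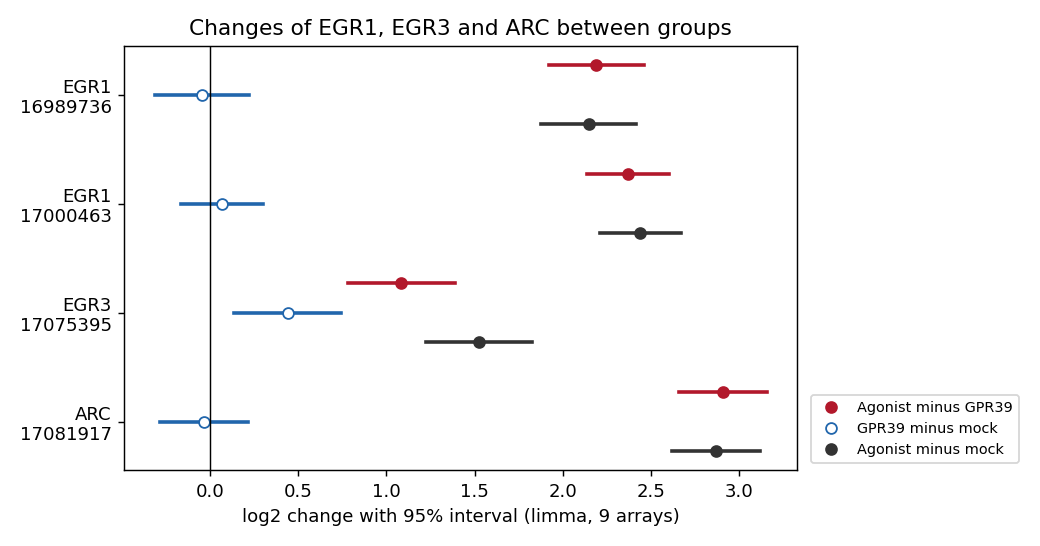
Log2 changes of the 4 probe sets in the 3 comparisons, with 95% intervals from the limma fit on all 9 arrays (filled points passed an adjusted p of 0.05). The agonist changes lie between 1.08 and 2.91, and the intervals of GPR39 minus mock include 0 for EGR1 and ARC.

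Whether the agonist difference was larger than the difference between GPR39 and mock was tested as a contrast of both, which share the GPR39 arrays. It was larger for ARC by 2.94 ± 0.19 (SE; limma adjusted p = 0.00127) and for EGR1 by 2.23 ± 0.20 on probe set 16989736 and 2.30 ± 0.17 on probe set 17000463 (SE; limma adjusted p = 0.00345 and 0.00231). Of all tested probe sets 1.03% passed this test, 0.434% upward and 0.593% downward. EGR3 did not pass, with 0.65 ± 0.23 (SE; 95% interval 0.12 to 1.17, limma adjusted p = 0.241). ARC and EGR1 thus rose with the agonist by more than they differed between GPR39 and mock, and for EGR3 this was not shown.

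The wider EGR group was examined next. Of 7 genes, EGR2 has no named probe set here, and 4 of the 6 tested rose between agonist and GPR39 arrays: EGR1 and EGR3 themselves, EGR4 and NAB1. EGR4, a family member best known from neurons, averaged 4.43 ± 0.17 in agonist arrays, against 3.14 ± 0.07 in GPR39 arrays (SD, n = 3 each), a change of 1.29 ± 0.15 (SE; limma adjusted p = 0.00231). Its mock arrays averaged 3.20 ± 0.29, and between GPR39 and mock EGR4 did not pass, with a difference of -0.06 ± 0.15 (SE; limma adjusted p = 0.893). NAB1, an EGR corepressor gene, averaged 5.79 ± 0.06 in agonist arrays, against 5.30 ± 0.15 in GPR39 arrays (SD, n = 3 each), and rose by 0.49 ± 0.10 (SE; limma adjusted p = 0.0212). That call was lost without GPR39 replicate 1 or 2 or agonist replicate 1 or 3 (limma adjusted p from 0.0536 to 0.0682). NAB2, the other corepressor gene, differed by 0.13 and WT1, a related zinc finger gene, by 0.13, and neither passed. Against mock NAB2 rose in agonist arrays by 0.49 (limma adjusted p = 0.00652). None of the 6 passed between GPR39 and mock.

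Other genes induced by activity in neurons or by growth factors behaved in more than one way. Of 53 listed genes 42 were named and tested, and 21 rose and 0 fell between agonist and GPR39 arrays, with a median of 0.40, against 0.01 over all tested probe sets, of which 3.12% rose and 5.95% fell. The list overlaps gene groups whose rise in these arrays was already known when it was drawn up, so its direction is not independent evidence. FOSB, an AP-1 subunit gene, rose by 2.66 ± 0.12 (SE), and by 1.22 on its other probe set. HOMER1, which encodes a synaptic scaffold protein and in rodents has a short form induced by activity, averaged 9.74 ± 0.08 in agonist arrays, against 7.79 ± 0.04 in GPR39 arrays (SD, n = 3 each), and rose by 1.95 ± 0.08 (SE). NPTX2, a secreted pentraxin that gathers glutamate receptors at synapses, rose by 1.20 ± 0.07 and DUSP1, a phosphatase of MAP kinases, by 1.34 ± 0.07 (SE). RRAD, which encodes a Ras-related GTPase, rose by at least 3.75, since 1 of 3 GPR39 arrays was at or below the 40th percentile. FOS rose by 1.75 ± 0.11 (SE), while its other probe set changed by 0.76 and did not pass (limma adjusted p = 0.0525). The largest limma adjusted p among the 6 genes called here was 0.000105. Among the genes that did not pass were NPAS4, a neuron-specific factor gene that differed by 0.23, and BDNF, a neurotrophin gene that differed by -0.05.

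Between GPR39 and mock arrays 13 of the 42 rose and 1 fell, with a median of 0.31, where 0.749% of all tested probe sets rose and 0.422% fell. The number that rose was 8 without mock replicate 2 or without any 1 GPR39 array. CCN2, a secreted matrix protein gene, rose by 2.54 ± 0.09, the GTP-binding protein gene GEM by 2.38 ± 0.14, FOSL1, which encodes the AP-1 subunit FRA1, by 1.81 ± 0.14 and the stress response gene IER3 by 1.46 ± 0.07 (SE; the largest limma adjusted p was 0.000926). Other probe sets of IER3 read a smaller rise, down to 0.66, and the other CCN2 probe set a larger one of 3.13. These genes also rose between agonist and GPR39 arrays, GEM by 1.45, FOSL1 by 0.85, CCN2 by 0.66 and IER3 by 0.40 (largest limma adjusted p = 0.011). Not all IER3 probe sets showed this rise, as several differed by only 0.08 and did not pass (limma adjusted p = 0.657). GEM and FOSL1 did not pass the test of the difference between both steps. FOS fell by 0.74 ± 0.11 (SE; limma adjusted p = 0.0204), and lost the call without mock replicate 2 or 3 or GPR39 replicate 3 (limma adjusted p from 0.0798 to 0.0816). The other FOS probe set did not show the fall, with a difference of -0.06 (limma adjusted p = 0.916). In the test of the difference between both steps, 6 of the 42 were larger with the agonist, as EGR1 and ARC were: FOSB, FOS, HOMER1, RRAD, DUSP1 and NPTX2. Another 3 were larger between GPR39 and mock: CCN2, IER3 and DUSP4, the last named after its values were seen. The remaining 33 did not pass that test.

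**Figure D3:**
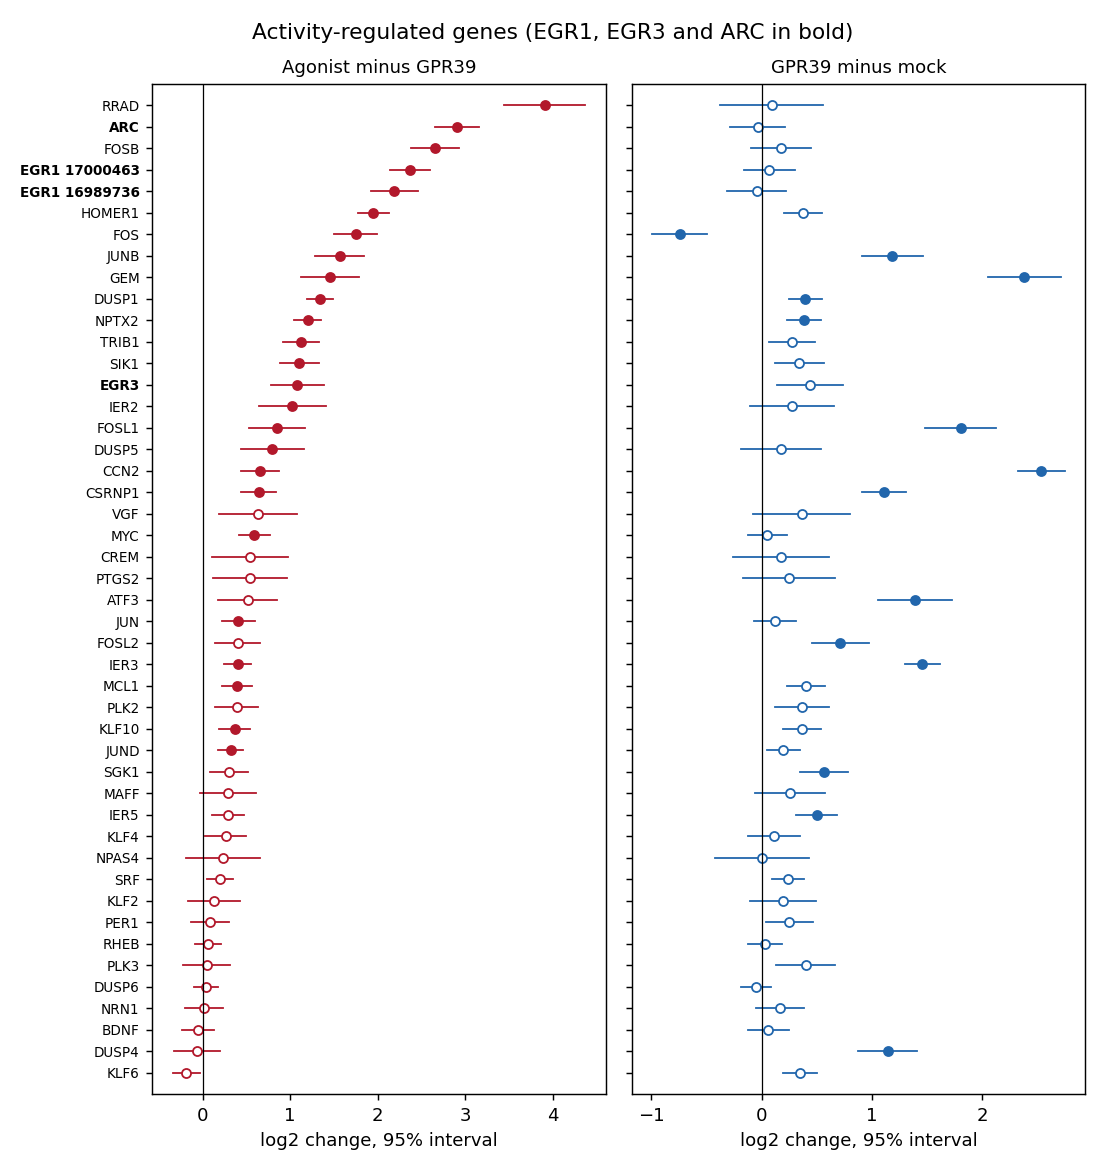
Log2 changes with 95% intervals of the 4 probe sets of EGR1, EGR3 and ARC (bold) and of 42 other activity-regulated genes, for agonist minus GPR39 (left) and GPR39 minus mock (right); filled points passed an adjusted p of 0.05 in limma, and RRAD is drawn at its fitted change of 3.91. ARC and EGR1 lie near the top on the left and at about 0 on the right, while CCN2, GEM and FOSL1 changed most on the right.

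Promoter sequences of these genes were searched in the same way. Of the 21 that rose with the agonist, 12 matched a RefSeq promoter entry and 0 of these held a CArG box, against 1.60% of all genes with an entry. Of the 21 that did not pass, 20 had an entry and 1 held a CArG box. That gene was SRF, which encodes serum response factor itself and changed by 0.20 (limma adjusted p = 0.100). A full TGACGTCA was held by 2 of the 12 and by 3 of the 20, against 2.25% of all genes. Of the genes most like EGR1, EGR3 or ARC over the arrays, described below, 10 had an entry and 0 held a CArG box. The absence of a match says only that the letters are not in this window.

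The 5 genes whose values over the 9 arrays were most like those of each probe set were ranked by the root mean square difference of log2 values, after centring each gene on its own mean, among 11915 other genes. All arrays share 1 cell line and the 3 groups, so likeness is mostly a matter of equal changes between groups. HOMER1 was closest to EGR1 on probe set 16989736 (0.20, Pearson r = 0.98 over 9 arrays), followed by KDM6B, a histone demethylase gene, and STC1, a secreted glycoprotein hormone gene (0.23 and 0.26). NRARP, a Notch feedback gene, was closest to probe set 17000463 (0.20), followed by HOMER1 and FOSB. The survival gene BCL2A1 was also among the 5 nearest to both EGR1 probe sets. KDM6B rose by 1.91 ± 0.08, STC1 by 1.81 ± 0.10 and NRARP by 2.36 ± 0.11 between agonist and GPR39 arrays (SE).

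ARC was closest to TM4SF1, a membrane protein gene, at a difference of 0.21, then to FOSB, BCL2A1, NRARP and USP17L12. TM4SF1 was at or below the 40th percentile in all 3 GPR39 and all 3 mock arrays, and rose by at least 2.40 between agonist and GPR39 arrays. Its first place and its difference of 0.21 therefore rest on values not above that percentile in 6 of 9 arrays, and among genes above it in every array FOSB was the closest to ARC, at 0.22. BCL2A1 rose by at least 2.35, with 1 of 3 GPR39 arrays at or below that percentile. All 3 of its mock arrays were also at or below it, so its likeness to ARC and EGR1 rests partly on such values. USP17L12 belongs to a family of near-identical copies that an array cannot separate. EGR3 had a different set of neighbours and the smallest differences: GAL, the galanin neuropeptide gene, at 0.09, SERTAD1, a transcription coregulator gene, at 0.09, and CTH, a cysteine synthesis enzyme gene, at 0.15. NUDT11, a phosphohydrolase gene, and BAIAP2, an adaptor for actin and membrane, followed. EGR3 also changed least, and the measure is not scaled to the size of change. Pearson r was 0.977 to 0.994 for the neighbours of EGR3 and 0.969 to 0.993 for those of EGR1 and ARC. GAL averaged 8.67 ± 0.09 in agonist, 7.51 ± 0.04 in GPR39 and 7.13 ± 0.13 in mock arrays (SD, n = 3 each), and its difference of 0.38 between GPR39 and mock did not pass (limma adjusted p = 0.0934). A difference of this size between GPR39 and mock was not particular to the neighbours of EGR3. Among these it lay between 0.20 for BAIAP2 and 0.59 for SERTAD1, and among the neighbours of EGR1 and ARC it was 0.38 for HOMER1, 0.44 for KDM6B, 0.42 for STC1, 0.46 for NRARP and 0.47 for USP17L12. The other neighbours of EGR1 and ARC differed less, FOSB by 0.175, TM4SF1 by 0.16 and BCL2A1 by 0.15. None of these neighbours passed in limma (smallest adjusted p = 0.056), but some lay close to the threshold. In the 17 alternative fits described at the end, KDM6B and USP17L12 passed in 5 each and HOMER1, GAL and SERTAD1 in 3 each. FOSB, BCL2A1, TM4SF1 and BAIAP2 passed in 0.

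**Figure D4:**
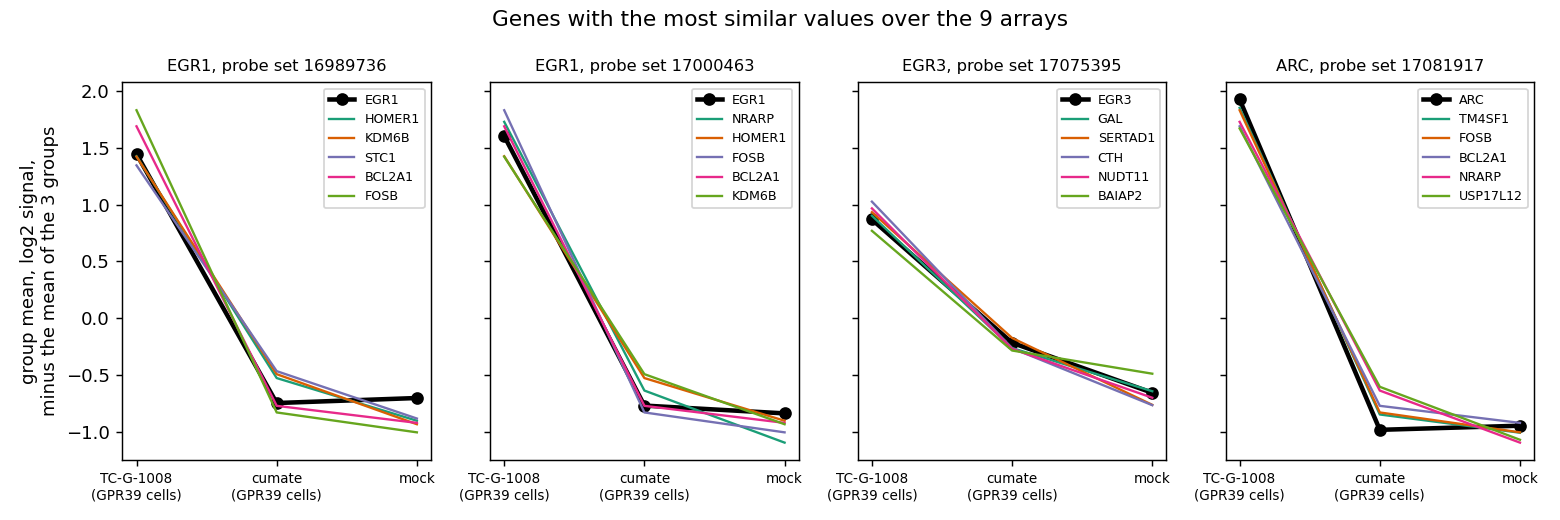
Group means of log2 signal, each gene centred on the mean of its 3 groups, for the 4 probe sets (black) and the 5 genes most like each over the 9 arrays (colours). All genes drawn are highest in agonist arrays, and EGR1 and ARC differ by 0.07 or less between GPR39 and mock. Each gene drawn beside them differs more, by 0.15 (BCL2A1) or above, though BCL2A1 and TM4SF1 rest there on values mostly at or below the 40th percentile.

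Genes upstream and downstream of EGR1 and ARC were examined from lists. Of 49 kinases, G protein subunits and promoter-binding factors, 22 were named and tested, and between agonist and GPR39 arrays 1 rose and 3 fell, with a median of -0.03. With 3.12% higher and 5.95% lower among all tested probe sets, these counts are near the background. MAP2K1, the ERK-activating kinase MEK1, rose by 0.35, and CAMK2D, a calcium-dependent kinase gene, fell by 0.62, MAPK3, which encodes ERK1, by 0.47, and MRTFB, a coactivator of serum response factor, by 0.31 (limma adjusted p from 0.0176 to 0.046). None of these calls was stable to leaving out arrays. MAP2K1 was lost without GPR39 replicate 1 or 2 or agonist replicate 2, CAMK2D without GPR39 replicate 1 or 3 or agonist replicate 1 or 3, MRTFB without 6 of the arrays and MAPK3 without 8 (largest limma adjusted p from 0.0684 to 0.133). Between GPR39 and mock arrays 1 of the 22 rose, MEF2D, an activity-responsive factor gene, by 0.52 (limma adjusted p = 0.0278), a call lost without any 1 of 8 arrays, all but mock replicate 1 (largest limma adjusted p = 0.117). CREB1, which encodes the CRE-binding factor, differed by -0.03 and did not pass.

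Of 22 genes known as EGR1 targets 12 were named and tested, and 5 rose and 0 fell between agonist and GPR39 arrays, with a median of 0.21, where 3.12% of all tested probe sets rose and 5.95% fell. The number was 3 without GPR39 replicate 1 or 2 or agonist replicate 1 or 3. This list was also drawn up with earlier results of these data known, so its direction is not independent evidence. THBS1, a matrix glycoprotein gene, rose by 0.84 ± 0.12, CD44, the hyaluronan receptor gene, by 0.80 ± 0.08 and CCND1, the cyclin D1 gene, by 0.62 ± 0.07 (SE), and the others were NAB1 and FN1. FN1, the fibronectin gene, rose by 0.504, a call lost without any 1 of 7 arrays, all but mock replicates 1 and 3 (limma adjusted p from 0.0571 to 0.119). CD44, THBS1 and ICAM1, an adhesion receptor gene, also rose between GPR39 and mock arrays, by 1.75, 1.46 and 1.12, where EGR1 did not pass. ICAM1 differed by -0.34 between agonist and GPR39 arrays and did not pass. In the test of the difference between both steps, CD44 and ICAM1 were larger between GPR39 and mock (contrasts of -0.94 and -1.46, limma adjusted p = 0.0273 and 0.0177), the opposite direction to EGR1. PDGFA and PDGFB, platelet-derived growth factor genes, differed by 0.06 and -0.25 and did not pass.

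Of 20 genes for partners of ARC or its turnover, 10 were named and tested, and 0 passed in limma in any of the 3 comparisons, where 9.06%, 1.17% and 15.0% of all tested probe sets passed, so the count is near the background. Without GPR39 replicate 2, IQSEC2, a synaptic exchange factor gene, fell between agonist and GPR39 arrays by 0.40 (limma adjusted p = 0.0394), against a difference of -0.14 with all arrays. Between agonist and GPR39 arrays the changes lay between -0.41 for DBN1, the actin-binding drebrin gene, and 0.44 for NOTCH1, which had unadjusted p of 0.0306 and 0.0102. RNF216, a ubiquitin ligase that acts on ARC, and GSK3B, a kinase that acts on it, differed by -0.05 and 0.08.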

How the data were processed

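RNA from HEK293 cells in 3 groups was hybridised to 9 Affymetrix arrays, per the labels' protocols. The authors deposited 1 value per probe set and array, taken as log2 because of its range (0.717 to 13.5). MAS5 is named in the submitters' processing notes, which as used here give no version, log step or normalization between arrays. Probe sets were named by the platform annotation (16098 of 53617, with 1 symbol each), updated through Entrez identifiers in RefSeq genes of GRCh38.p14. All 9 arrays were fitted in limma 3.58.1 (R 4.3.3, lmFit and eBayes, 6 residual and 2.12 prior degrees of freedom), with two-sided p-values adjusted by Benjamini-Hochberg across the 33376 probe sets that exceeded the array's 40th percentile in 3 or more arrays. Scripts were tested on simulated data. Where a called change had arrays of the lower group at or below that percentile, the percentile replaced dimmer values ("at least"). Lists used 1 probe set per gene, the brightest. Named genes are the members, the 5 most like each, and the list members with the smallest adjusted p (6 for agonist against GPR39, 4 for GPR39 against mock), with the tested EGR group. DUSP4, SRF, BDNF, NPAS4, CREB1, PDGFA, PDGFB and the markers HOXB7, KRT18, TYROBP, SYN1, MAP2 and SYP were named after their values were seen. Genes, lists and tests were chosen with earlier results of these data known. The number of arrays limits the precision.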

Additional observations from a re-analysis of the deposited data

How the results depend on the processing

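The 16 results for single probe sets of EGR1, EGR3 and ARC kept their side of the threshold in all 268 values from filters, scalings, spread models, the replicate block, a pseudocount and leaving out arrays. Leaving out 1 array gave agonist against GPR39 changes of 2.83 to 2.95 for ARC, 2.10 to 2.28 and 2.32 to 2.41 for EGR1 and 1.03 to 1.15 for EGR3. Calls over all probe sets moved more. Between agonist and GPR39 arrays 3025 passed, against 1819 with the replicate block and 1509 to 3119 without 1 array, the low values coming without GPR39 replicate 1, 2 or 3 (1583, 1515 and 1509) and without agonist replicate 1 (2015). Between GPR39 and mock arrays 391 passed, against 663 with an intensity trend and robust prior, 765 with the pseudocount, 190 with only the groups compared, 150 with the replicate block and 108 to 1323 without 1 array. That count was 1323, 139 and 196 without mock replicates 1, 2 and 3 and 129, 115 and 108 without GPR39 replicates 1, 2 and 3. Between agonist and mock arrays 5022 passed, and 3133 with only these groups. Listed genes passing between GPR39 and mock numbered 18, and 11 with only those groups or without mock replicate 2 or GPR39 replicate 3 (range 11 to 22). The cause was not tested, and those fits also hold fewer arrays. Centring on the 75th percentile gave 74.7% higher calls between GPR39 and mock, against 63.9% as deposited and 31.4% without mock replicate 1, and 56.2% between agonist and mock, against 40.6%. Same-numbered arrays did not deviate together (r from -0.101 to 0.065, against -0.129 to 0.119 for arrays of different number). With 3 arrays a group this cannot show whether the numbers pair the samples, which the labels do not state. With the replicate block the agonist change of EGR3 had limma adjusted p = 0.0166. Between agonist and GPR39 arrays the rising activity-regulated genes numbered 16 to 22 without 1 array, against 21, and between GPR39 and mock 8 to 14, against 13.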
